A study of Mus musculus with 15 samples.

Results

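The genes of the Wnt entry into the cell were examined in mouse colon: the secreted Wnt ligands, their Frizzled receptors and coreceptors, and the secreted R-spondins, Frizzled-related proteins and Dickkopf proteins that modulate them. Members were the genes whose name on the array was Wnt, Fzd, Sfrp1 to Sfrp5, Dkk1, Dkk3, Dkk4, Dkkl1, Lrp5, Lrp6, Ror1, Ror2, Ryk or Rspo1 to Rspo4, with Dkk2 left out. They numbered 46 genes with 64 probes, out of 27392 genes with 41174 probes on the array. By role they were 19 Wnt ligands, 10 Frizzled receptors, 5 coreceptors or alternative receptors (Lrp5, Lrp6, Ror1, Ror2 and Ryk), 4 R-spondins, 4 secreted Frizzled-related proteins and 4 members of the Dickkopf family. Of the 46 genes, 36 had a probe bright enough to be tested among 21304 genes in all.

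Wnt proteins are lipid-modified secreted ligands that bind a Frizzled receptor together with Lrp5 or Lrp6, which stabilises beta-catenin and lets it act with TCF and LEF factors on target genes. In the colon this pathway maintains the stem cells at the crypt base, and its activation is a hallmark of colorectal tumours. R-spondins strengthen the signal by keeping Frizzled receptors on the cell surface, Sfrp proteins bind Wnts outside the cell, Dkk1 blocks Lrp5 and Lrp6, and Ror1, Ror2 and Ryk carry Wnt signals that do not need beta-catenin.

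All animals were female Swiss Webster mice that had received azoxymethane (AOM, a colon carcinogen, 7.4 mg/kg, intraperitoneal) and 3 cycles of 4% dextran sulfate sodium (DSS, which injures the colon lining), each of 7 days of DSS and 21 days of water. They were 7 weeks old at entry, 9 weeks at the first DSS cycle and 18 weeks at sacrifice. Treated mice also received 5-aminosalicylic acid (5-ASA, an anti-inflammatory drug, 75 mg/kg). The controls are called untreated here: their treatment label reads none, while the design text of the series says vehicle. Inflamed or polypoid areas of colon were captured by laser from 5 µm frozen sections, and no group without AOM and DSS was analysed here. The 4 groups, untreated inflamed, 5-ASA inflamed, untreated polypoid and 5-ASA polypoid, held 2 mice each, and no mouse gave tissue to more than 1 group. The RNA was amplified in 2 rounds and hybridised to 15 dual-colour Agilent arrays against a universal mouse reference RNA amplified in parallel. For 7 mice a further array had the dyes swapped, and 5-ASA inflamed replicate 2 had 1 array.

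Every value below is log2 of sample over reference, 1 value per mouse with the dye effect of each probe removed, so 0 means the level of the reference RNA and levels of different genes are not comparable. Sample-channel medians of single arrays ran from 148.6 to 257.2 intensity units. Between 57.4% and 90.9% of spots were well above background, with the lowest share in 5-ASA inflamed replicate 2. All 10 epithelial markers, Epcam and Cdh1 among them, were well above background on all 15 arrays, so epithelium was present in every sample. Their mean level was 3.13 to 3.53 in inflamed mice, 3.25 and 3.49 in untreated polypoid and 3.01 and 2.74 in 5-ASA polypoid mice. Krt8 was saturated on every array and Krt18, Krt19 and Krt20 on some, which limits their ratios. Across all genes untreated polypoid replicate 1 correlated at r = 0.871 with the other mouse of its group, at 0.891 with 5-ASA inflamed replicate 2 and at 0.9 with 5-ASA polypoid replicate 1; genes are not independent replicates. The arrays were scanned in 4 sessions, of which 1 (session 3) held both tissues. It held 1 inflamed mouse, untreated, and 1 polypoid mouse of each arm, so a tissue difference within it rests on a single inflamed mouse. It is given with both polyps and with the untreated polyp alone.

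The scanner software called a probe of 24 of the 46 members well above background in the sample channel on all 15 arrays. These were 8 Wnt ligands (Wnt1, Wnt2, Wnt5b, Wnt6, Wnt7b, Wnt9b, Wnt10a and Wnt16), 7 Frizzled receptors (Fzd1, Fzd4, Fzd5, Fzd6, Fzd7, Fzd9 and Fzd10), Lrp5, Ror2 and Ryk, all 4 Sfrp genes (Sfrp1, Sfrp2, Sfrp4 and Sfrp5), Dkk3 and Dkkl1, and none of the R-spondins. A further 12 members passed the filter through at least 1 group in which every array was above background: Wnt3, Wnt7a, Wnt8b, Wnt9a, Wnt10b, Wnt11, Fzd2, Fzd3, Fzd8, Lrp6, Rspo1 and Rspo3. The other 10 members did not pass and have no test: Wnt2b, Wnt3a, Wnt4, Wnt5a, Wnt8a, Ror1, Rspo2, Rspo4, Dkk1 and Dkk4.

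**Figure D1:**
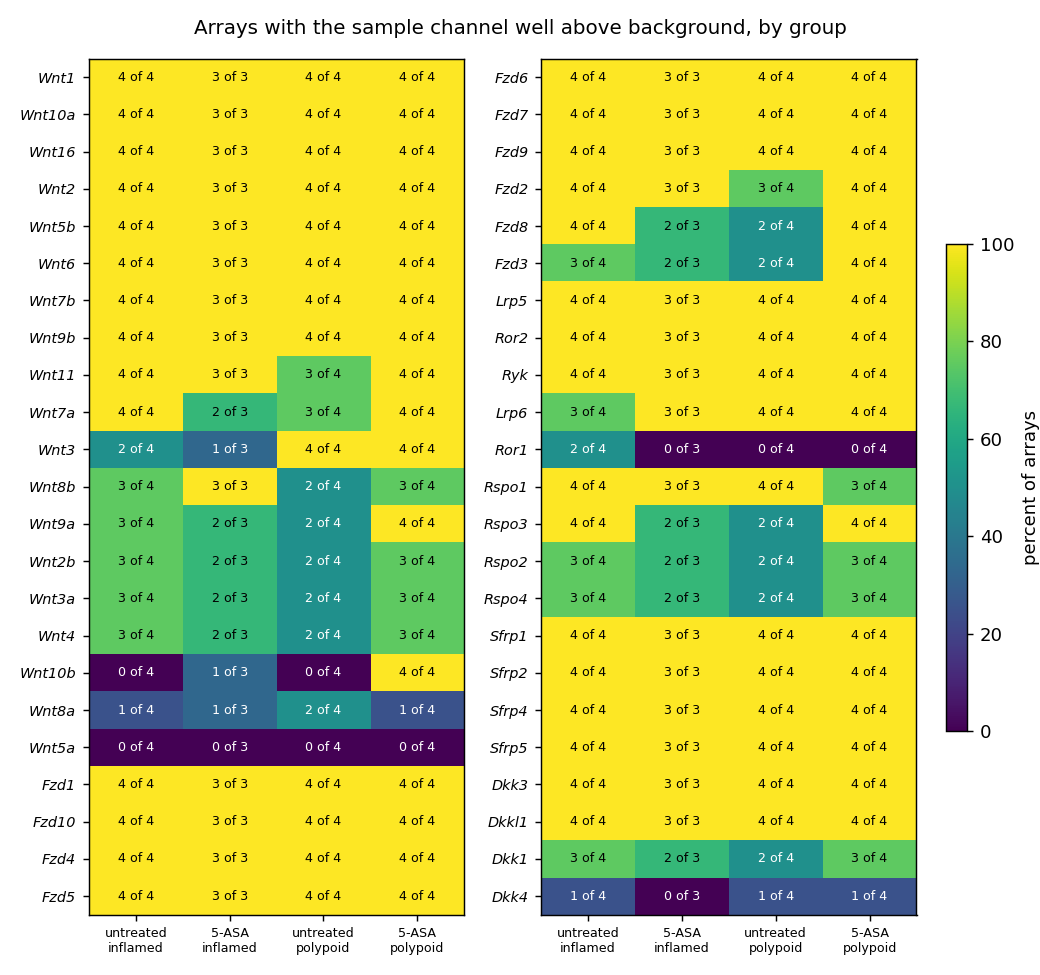
Number of arrays of each group (columns) on which the sample channel of each member (rows, ordered by role) was well above background, coloured by the percent of the group's arrays. For genes with 2 probes the probe above background on more arrays is shown; 24 members are full in all groups, Wnt3 is full only in the polypoid groups, and Wnt5a is empty throughout.

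The dye entered this count. Wnt2b, Wnt3a, Wnt4, Rspo2 and Rspo4 each had a probe above background on 10 of the 15 arrays, which were all 7 arrays with the sample in Cy5 and 3 of the 8 with the sample in Cy3. Their signal was 1.34 to 1.53 times that of the array's negative control spots in either tissue, so a low level and no level were not distinguishable for these genes. Wnt5a, a ligand of the branch that does not need beta-catenin, was above background on 0 arrays in the sample and on 0 in the reference. Dkk1, the classic secreted blocker of Lrp5 and Lrp6, was above background on 10 arrays with its better probe, and Dkk4 on 3. The 10 arrays of Dkk1 had the same split by dye, 7 in Cy5 and 3 in Cy3. Its signal was 1.26 times the negative controls in inflamed and 1.35 times in polypoid tissue, so the same limit holds for Dkk1. Wnt10b differed between groups in detection: 4 of 4 arrays of 5-ASA polyps were above background, 1 of 3 of 5-ASA inflamed tissue and 0 of 8 of untreated mice. It passed the filter through the 5-ASA polyps alone, and its difference between 5-ASA and untreated mice was 0.16 ± 0.09 SE and did not pass (limma adjusted p = 0.83). Of the dim second probes, that of Fzd8 was above background on 2 of 3 arrays of 5-ASA inflamed tissue and 0 of 4 of 5-ASA polyps. In untreated mice this probe was above background on 2 of 4 arrays in either tissue. The Ror1 probes went opposite ways, with 1 above background on 2 of 7 inflamed and 0 of 8 polypoid arrays and the other on 0 of 7 and 1 of 8.

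Polypoid was then compared with inflamed colon over both treatment arms, 4 mice against 4, to ask which ligands, receptors and modulators differ in the polyps. Wnt6, Wnt10a, the receptor Fzd10 and the secreted protein Dkk3 were higher in polypoid tissue, and the secreted Wnt antagonist Sfrp1 was lower. With limma and Benjamini-Hochberg adjustment over all 21304 genes at a threshold of 0.05, 4 of the 36 tested members passed as higher, where 3.98% of all genes did, and 1 as lower, where 1.99% did. The median difference of the tested members was 0.01, with 19 of 36 above 0, beside -0.016 and 47.2% over all genes. The Wnt family as a whole therefore had no common direction, and the difference lay in a few members.

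**Figure D2:**
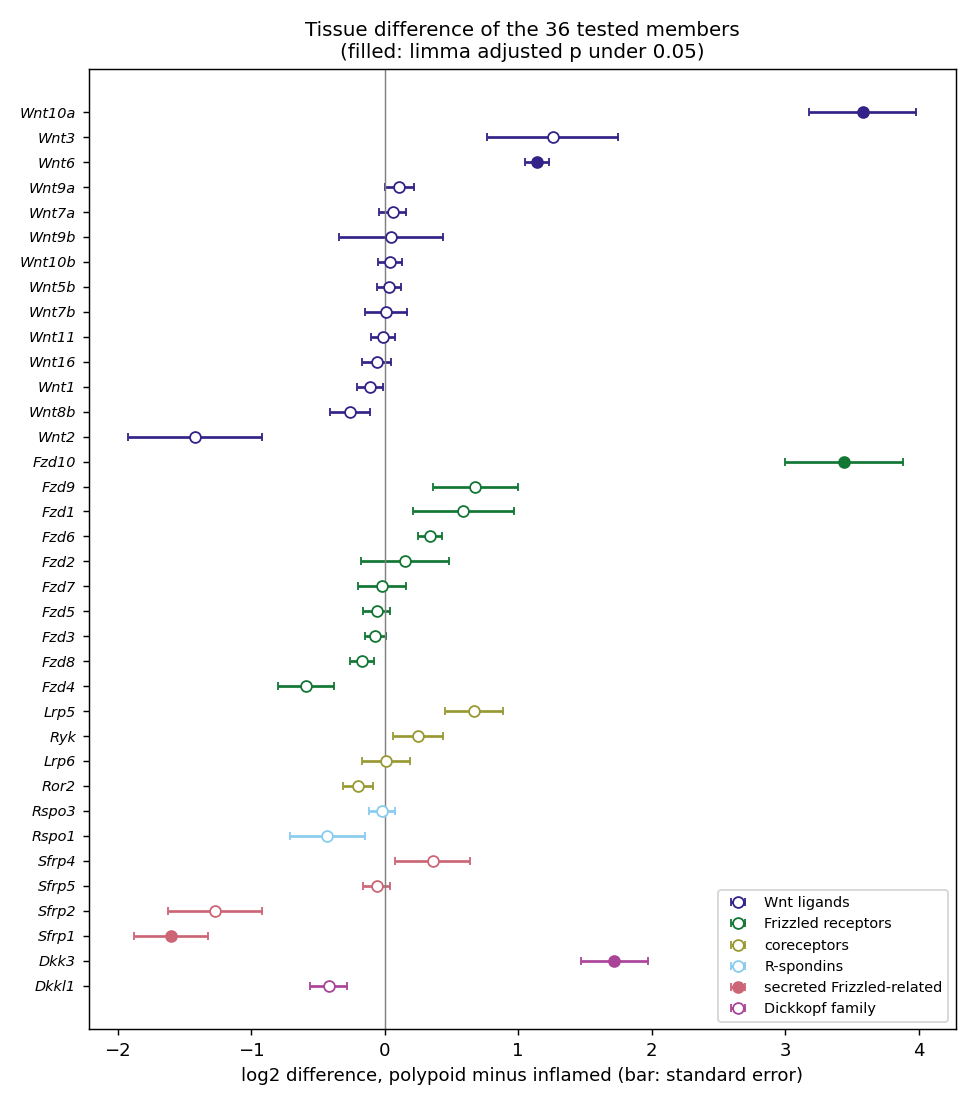
Log2 difference between polypoid and inflamed tissue (mean of 4 mice minus mean of 4 mice, bars are the standard error) for the 36 tested members, coloured by role; filled points passed the threshold. Wnt10a (3.58) and Fzd10 (3.44) lie farthest to the right and Sfrp1 (-1.60) farthest to the left, while most other members lie close to 0.

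Among the ligands, Wnt10a, a Wnt best known from skin and tooth development, was -3.45 and -3.24 in untreated inflamed, -3.64 and -2.26 in 5-ASA inflamed, -0.58 and -1.05 in untreated polypoid and 1.04 and 2.31 in 5-ASA polypoid mice. All polypoid mice lay above all inflamed mice, and the 5-ASA polyps were the highest. The difference was 3.58 ± 0.40 SE, or 11.9-fold (limma adjusted p = 0.011), while within session 3 it was 3.87 with both polyps and 2.19 with the untreated polyp alone. Its signal rose from 4.13 times to 116 times the negative controls.

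Wnt6, a ligand expressed by many epithelia in development, was 0.04 and 0.14 in untreated inflamed, 0.02 and 0.06 in 5-ASA inflamed, 0.94 and 0.87 in untreated polypoid and 1.43 and 1.59 in 5-ASA polypoid mice. The inflamed mice were almost alike and all polypoid mice lay above them. The difference was 1.14 ± 0.09 SE, or 2.21-fold (limma adjusted p = 0.005), while within session 3 it was 1.09 with both polyps and 0.73 with the untreated polyp alone. A second Wnt6 probe, dimmer in inflamed tissue, gave 0.03 and -0.21, then -0.24 and 0.48, in the inflamed groups and 3.37 and 2.71, then 3.93 and 3.78, in the polypoid groups. It had the same direction with a difference of 3.43 ± 0.22 SE (limma adjusted p = 0.004 over all probes), so the direction held on both probes and the size did not.

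Wnt6 and Wnt10a are neighbours on chromosome 1, with no other protein-coding gene between them in the RefSeq annotation. The same annotation holds 3 other such pairs of members, Wnt9b with Wnt3, Wnt10b with Wnt1, and Wnt3a with Wnt9a. Wnt9b differed by 0.05 and Wnt3 by 1.26, and Wnt10b by 0.04 and Wnt1 by -0.11, none of which passed; Wnt3a was not tested. Among these 4 pairs, Wnt6 with Wnt10a was the one in which both genes passed.

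Among the receptors, Fzd10, a Frizzled with low expression in most adult tissues, was -3.13 and -2.78 in untreated inflamed, -3.20 and -2.38 in 5-ASA inflamed, 0.17 and -1.48 in untreated polypoid and 1.25 and 2.34 in 5-ASA polypoid mice. As for Wnt10a, the tissues did not overlap and the 5-ASA polyps were the highest. The difference was 3.44 ± 0.44 SE, or 10.9-fold (limma adjusted p = 0.015). Within session 3 it was 3.21 with both polyps and 1.30 with the untreated polyp alone. The signal of this probe was 2.92 times the negative controls in inflamed and 68.7 times in polypoid tissue, so the fold depends on a dim inflamed level. A second Fzd10 probe, near the negative controls in both tissues (1.95 and 2.39 times), differed by 0.21 ± 0.11 SE and did not pass (limma adjusted p = 0.32). The call for Fzd10 therefore rests on 1 of its 2 probes.

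The promoters of the called members that RefSeq's table holds are shown because these genes rose together in the polyps. The table (GRCm38.p6) has 33 entries for 30 of the 46 members, Wnt6 and Fzd10 among them and Wnt10a, Dkk3 and Sfrp1 not. Each line gives the 250 bases directly upstream of the annotated gene start, 5′ to 3′, for Wnt6 chr1:74771642-74771891 and for Fzd10 chr5:128600856-128601105, both on the plus strand. Capitals mark the GC box GGGCGG or its reverse complement CCGCCC.
Wnt6: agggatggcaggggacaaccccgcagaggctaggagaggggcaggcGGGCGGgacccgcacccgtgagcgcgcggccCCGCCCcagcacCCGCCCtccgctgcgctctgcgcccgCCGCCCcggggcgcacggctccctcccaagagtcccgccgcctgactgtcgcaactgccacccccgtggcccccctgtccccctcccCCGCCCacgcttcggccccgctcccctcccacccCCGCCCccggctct
Fzd10: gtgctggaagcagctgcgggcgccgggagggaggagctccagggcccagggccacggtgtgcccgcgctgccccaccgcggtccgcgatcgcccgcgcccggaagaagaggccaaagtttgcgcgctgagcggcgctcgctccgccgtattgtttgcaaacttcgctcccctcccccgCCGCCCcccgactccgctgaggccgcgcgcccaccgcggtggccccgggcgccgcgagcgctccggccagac

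Wnt6 held 6 GC boxes and Fzd10 held 1. Among all 32851 promoters, 32.7% held at least 1 in the same 250 bases, and 23 of the 33 member entries did. The CpG dinucleotide occurred 28 times in the Wnt6 and 37 times in the Fzd10 stretch, against a median of 6 over all promoters. The member entries ran from 4 (1 entry of Wnt5b) to 48 (Wnt9a). Members that were not called held as many, such as Wnt9a and Fzd9 (42), so the count was not particular to the called genes. The TCF core, searched as CTTTGAT and CTTTGTT on both strands and sharing no whole match with the GC box, was in neither stretch. It was in 8.06% of all promoters and in 4 of the 33 member entries, those of Fzd7, Wnt11, Wnt5b (1 of its 3 entries) and Dkk1. Fzd7, Wnt11 and Wnt5b were not called, and Dkk1 was not tested. These are letter matches in a short window and show no binding.

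Among the secreted modulators, Dkk3, a divergent Dickkopf protein that does not share the Lrp5 and Lrp6 blocking activity of Dkk1, was 0.44 and -0.09 in untreated inflamed, 0.74 and 0.92 in 5-ASA inflamed, 2.16 and 1.12 in untreated polypoid and 2.77 and 2.87 in 5-ASA polypoid mice. The tissues did not overlap, and the highest values were again in the 5-ASA polyps. Dkk3 differed by 1.72 ± 0.25 SE, or 3.3-fold (limma adjusted p = 0.02). Within session 3 it differed by 2.08 with both polyps and by 1.20 with the untreated polyp alone.

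Sfrp1, which binds Wnts outside the cell, was 0.20 and -0.17 in untreated inflamed, 0.53 and 0.87 in 5-ASA inflamed, -0.06 and -1.19 in untreated polypoid and -2.11 and -1.61 in 5-ASA polypoid mice. The 5-ASA polyps were the lowest, and untreated polypoid replicate 1 lay within the inflamed range. Sfrp1 fell by 1.60 ± 0.28 SE, or 3.03-fold (limma adjusted p = 0.032). Within session 3 it differed by -1.22 with both polyps and by -1.01 with the untreated polyp alone. Its second probe was not bright enough to be kept.

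**Figure D3:**
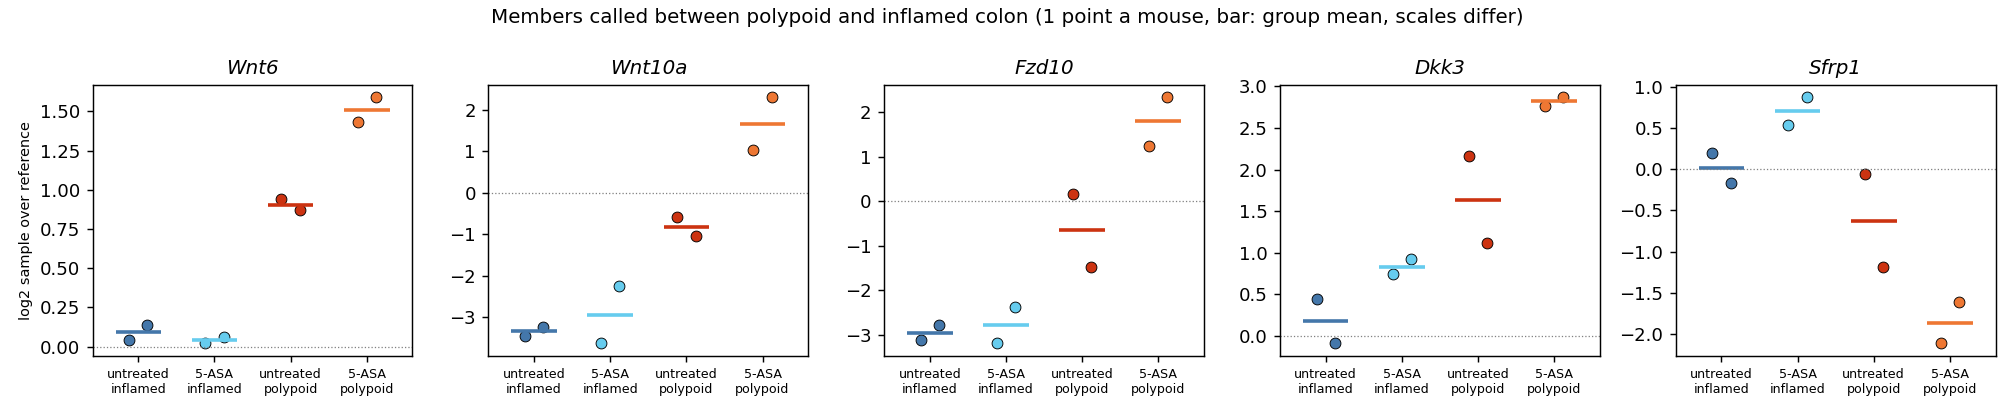
Log2 sample over reference of the 5 called members in each of the 8 mice (points) with the group mean (bars); the vertical scales differ between panels. Wnt6, Wnt10a, Fzd10 and Dkk3 have all polypoid mice above all inflamed mice, and Sfrp1 runs the other way with 1 untreated polyp (-0.06) inside the inflamed range.

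The support for these calls was limited by the number of mice and by the scan sessions. With session as a block, which leaves 1 residual degree of freedom, 0 members and 0 genes in all passed, while the 5 differences kept their direction and were 3.97 for Wnt10a, 1.11 for Wnt6, 3.24 for Fzd10, 1.93 for Dkk3 and -1.39 for Sfrp1 (limma adjusted p = 0.33 to 0.45). Leaving out 1 mouse at a time, Wnt6 and Wnt10a passed in all 8 fits, Wnt10a at the threshold of 0.05 after rounding without 5-ASA inflamed replicate 1. Fzd10 did not pass without 5-ASA inflamed replicate 1 (limma adjusted p = 0.08) or 5-ASA polypoid replicate 2 (0.051). Dkk3 and Sfrp1 passed without either untreated polyp and, for Dkk3, without untreated inflamed replicate 1, but in no other such fit. Without untreated polypoid replicate 1 the same 5 members passed.

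No further member passed. By unadjusted p under 0.05, 12 of 36 members differed, where 23.3% of all genes did. Beside the 5 called these were Fzd6, Sfrp2, Lrp5, Dkkl1, Fzd4, Wnt2 and Wnt3.

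Wnt3, a ligand made by Paneth cells in the small intestine, was -0.93 and -0.76 in untreated inflamed, -1.04 and -0.91 in 5-ASA inflamed, -0.05 and 0.02 in untreated polypoid and -0.48 and 1.89 in 5-ASA polypoid mice. The tissues did not overlap, but 1 polyp (1.89) lay far above the others. The difference was 1.26 ± 0.49 SE (limma adjusted p = 0.19). Wnt3 was above background on 3 of 7 inflamed arrays and on 8 of 8 polypoid arrays, so it passed the filter through the polypoid groups alone and the size of its difference is uncertain. That size moved with the settings, from 0.67 without 5-ASA polypoid replicate 2 (limma adjusted p = 0.066) to 1.85 without 5-ASA polypoid replicate 1 (0.015) and 3.11 from Agilent's processed signals (0.035). The values under the threshold carry no support, since the inflamed level was mostly not measured. Its second probe differed by 0.59 ± 0.24 SE in the same direction (limma adjusted p = 0.21).

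Wnt2, a ligand of stromal cells, was 1.35 and 2.12 in untreated inflamed, 1.89 and 1.93 in 5-ASA inflamed, 1.07 and -0.48 in untreated polypoid and -0.37 and 1.38 in 5-ASA polypoid mice. In each polypoid group 1 mouse was low and 1 close to the inflamed level, and the difference was -1.42 ± 0.50 SE (limma adjusted p = 0.16). Sfrp2, a relative of Sfrp1, was 0.24 and -0.66 in untreated inflamed, 0.27 and 0.94 in 5-ASA inflamed, -0.28 and -1.47 in untreated polypoid and -1.46 and -1.08 in 5-ASA polypoid mice. The tissues overlapped through the untreated mice, and the difference was -1.27 ± 0.35 SE (limma adjusted p = 0.093).

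Markers of smooth muscle also fell in polypoid tissue. Of 8 such markers 4 fell (Lmod1, Tagln, Cnn1 and Myl9), and the list had a median difference of -1.41. The mean of the list was 3.52 and 2.40 in untreated inflamed, 1.35 and 1.79 in 5-ASA inflamed, 1.17 and 0.74 in untreated polypoid and 0.57 and 0.97 in 5-ASA polypoid mice. Between tissues the 8 markers differed by -3 (Cnn1) to -0.44 (Actg2) in untreated and by -1.48 (Lmod1) to -0.13 (Des) in 5-ASA mice. Sfrp1 differed by -0.64 and -2.57 in these arms, each arm with 2 mice a tissue. Of 10 fibroblast markers 1 fell (Postn) and the median was -0.15, with list means of -0.38 to 0.33 in inflamed and -0.82 to 0.20 in polypoid mice. That list was split. Postn differed by -2.16 (-1.61 in untreated and -2.7 in 5-ASA mice). Lum, Fbln1 and Dpt differed by -1.75, -1.38 and -1.14 without passing, while 5 of the 10 were above 0, up to 0.69 (Pdgfra). The part of either marker list in the lower Sfrp1 was not tested. In captured tissue, fewer cells of a type and less RNA per cell cannot be told apart. In the same comparison 4 of 6 neutrophil markers rose (S100a8, S100a9, Retnlg and Mmp8) and 3 of 8 markers of mature colonocytes fell (median -0.95), also not tested as a part of the member differences. Retnlg and Mmp8 were above background on 2 and 0 of 7 inflamed arrays and entered through the polyps, while S100a8 and S100a9 were so on 6 and 7.

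Of the remaining Frizzled receptors, Fzd6 was 0.04 and -0.15 in untreated inflamed, -0.23 and -0.19 in 5-ASA inflamed, -0.09 and 0.02 in untreated polypoid and 0.44 and 0.46 in 5-ASA polypoid mice. The 5-ASA polyps stood above all other mice, which overlapped, and the tissue difference was 0.34 ± 0.09 SE (limma adjusted p = 0.089). Fzd6 is a receptor used in planar cell polarity. Fzd4, a receptor for Norrin as well as Wnts in blood vessels, was 0.03 and -0.25 in untreated inflamed, 0.07 and -0.54 in 5-ASA inflamed, -0.41 and -0.95 in untreated polypoid and -1.04 and -0.66 in 5-ASA polypoid mice. Fzd4 overlapped between tissues and differed by -0.59 ± 0.21 SE (limma adjusted p = 0.16). Endothelial markers had 0 of 5 called and a median of -0.07, and the part of vessel RNA in the Fzd4 difference was not tested.

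Fzd9 was -0.26 and -0.27 in untreated inflamed, -0.65 and -0.83 in 5-ASA inflamed, 0.34 and -0.54 in untreated polypoid and -0.18 and 1.08 in 5-ASA polypoid mice, a difference of 0.68 ± 0.32 SE (limma adjusted p = 0.28). Fzd1 was -0.31 and -1.13 in untreated inflamed, -0.21 and -0.02 in 5-ASA inflamed, 1.05 and -0.57 in untreated polypoid and 0.23 and 0.00 in 5-ASA polypoid mice, a difference of 0.59 ± 0.38 SE (adjusted p = 0.42). Both receptors spread widely among the polyps and overlapped between tissues.

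For Fzd8 the inflamed mice lay between 0.08 and 0.24 (0.24 and 0.08 untreated, 0.20 and 0.16 with 5-ASA) and the polypoid mice between -0.08 and 0.05 (0.02 and 0.05 untreated, -0.08 and -0.01 with 5-ASA). Fzd3 was 0.13 and 0.14, then 0.20 and 0.22, in the inflamed groups and 0.09 and 0.07, then 0.12 and 0.11, in the polypoid groups. Both had all polypoid mice below all inflamed mice by less than 0.2, with signals of 1.54 to 1.61 times the negative controls, and neither passed (limma adjusted p = 0.3 and 0.65). The second Fzd3 probe went the other way, at 0.30 ± 0.17 SE (adjusted p = 0.36).

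Among the coreceptors, Lrp5 was -0.33 and 0.04 in untreated inflamed, -0.48 and -1.27 in 5-ASA inflamed, 0.02 and -0.38 in untreated polypoid and 0.71 and 0.30 in 5-ASA polypoid mice. The untreated mice of both tissues overlapped, and the 5-ASA mice of both tissues stood apart. Lrp5 differed by 0.67 ± 0.22 SE (limma adjusted p = 0.14), and within session 3 by -0.07 with both polyps and -0.41 with the untreated polyp alone. Ror2 was 0.21 and 0.59, then 0.30 and 0.18, in the inflamed groups and 0.13 and 0.11, then 0.13 and 0.11, in the polypoid groups, with no overlap and a difference of -0.20 ± 0.11 SE (adjusted p = 0.35). Ryk was -0.94 and -1.06, then -0.74 and -1.12, in the inflamed groups and -0.48 and -0.88, then -0.43 and -1.09, in the polypoid groups, with overlap and a difference of 0.25 ± 0.19 SE (adjusted p = 0.51).

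Of the other modulators, Dkkl1, a Dickkopf-like protein best known from testis, was -0.16 and 0.42 in untreated inflamed, -0.40 and -0.52 in 5-ASA inflamed, -0.49 and -0.42 in untreated polypoid and -0.68 and -0.77 in 5-ASA polypoid mice. The untreated inflamed mice were the highest and the 5-ASA polyps the lowest, and the tissue difference was -0.42 ± 0.14 SE (limma adjusted p = 0.15). Leaving out 1 mouse at a time, it ran from -0.57 without untreated inflamed replicate 1 (adjusted p = 0.048) to -0.28 without untreated inflamed replicate 2 (0.18), and the adjusted p of the other 6 fits was 0.23 or above. Sfrp4 was 0.23 and 0.12, then 0.39 and -0.22, in the inflamed groups and 1.38 and 0.18, then 0.17 and 0.20, in the polypoid groups, so that 1 untreated polyp lay above 7 similar mice (0.36 ± 0.28 SE, adjusted p = 0.52). Rspo1, an R-spondin, was -1.10 and -0.41, then -0.13 and -1.03, in the inflamed groups and -0.39 and -1.0, then -1.61 and -1.39, in the polypoid groups, with overlap and a difference of -0.43 ± 0.28 SE (adjusted p = 0.41).

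The 4 ligands that follow differed between tissues by -0.26 to 0.11. The signals of Wnt8b, Wnt9a and Wnt7a were 1.47 to 1.8 times the negative controls, where ratios are compressed towards 0. Wnt9a passed the filter through the 5-ASA polyps alone and Wnt8b through 5-ASA inflamed tissue alone. Wnt8b was 0.12 and 0.09, then -0.01 and 0.41, in the inflamed groups and -0.34 and 0.02, then -0.22 and 0.11, in the polypoid groups (-0.26 ± 0.15 SE, limma adjusted p = 0.37). Wnt1, the founding member of the family, was 0.03 and 0.17, then 0.03 and 0.00, in the inflamed and 0.10 and -0.16, then -0.09 and -0.06, in the polypoid groups (-0.11 ± 0.10 SE, adjusted p = 0.57). In all 4 ligands the tissues overlapped. Wnt9a was -0.32 and -0.22, then -0.34 and -0.30, in the inflamed and -0.50 and -0.18, then -0.10 and 0.05, in the polypoid groups (0.11 ± 0.11 SE, adjusted p = 0.59). Wnt7a was -0.26 and -0.06, then -0.26 and -0.20, in the inflamed and -0.25 and -0.06, then -0.06 and -0.16, in the polypoid groups (0.06 ± 0.10 SE, adjusted p = 0.76).

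The other 12 tested members, Sfrp5, Fzd2, Fzd5, Fzd7, Lrp6, Rspo3, Wnt5b, Wnt7b, Wnt9b, Wnt10b, Wnt11 and Wnt16, differed between tissues by -0.06 to 0.15. Their limma adjusted p was 0.76 or above. From the lowest to the highest of the 8 mice Wnt9b spanned 1.44, Fzd2 1.1 and Wnt11 0.17. In Wnt9b and Fzd2 the span followed the replicate number, which goes with the scan sessions. Wnt9b was -1.48 to -1 in replicates 1 and -0.47 to -0.04 in replicates 2. Fzd2 was -1.71 to -1.28 and -0.77 to -0.62 in the same order. Differences between mice and between sessions cannot be told apart in these spans. The signal of Wnt16 was 7.64 times the negative controls in inflamed and 11.6 times in polypoid tissue, and that of the other 11 genes 1.24 to 4.35 times. Ratios of such dim probes are compressed towards 0.

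**Figure D4:**
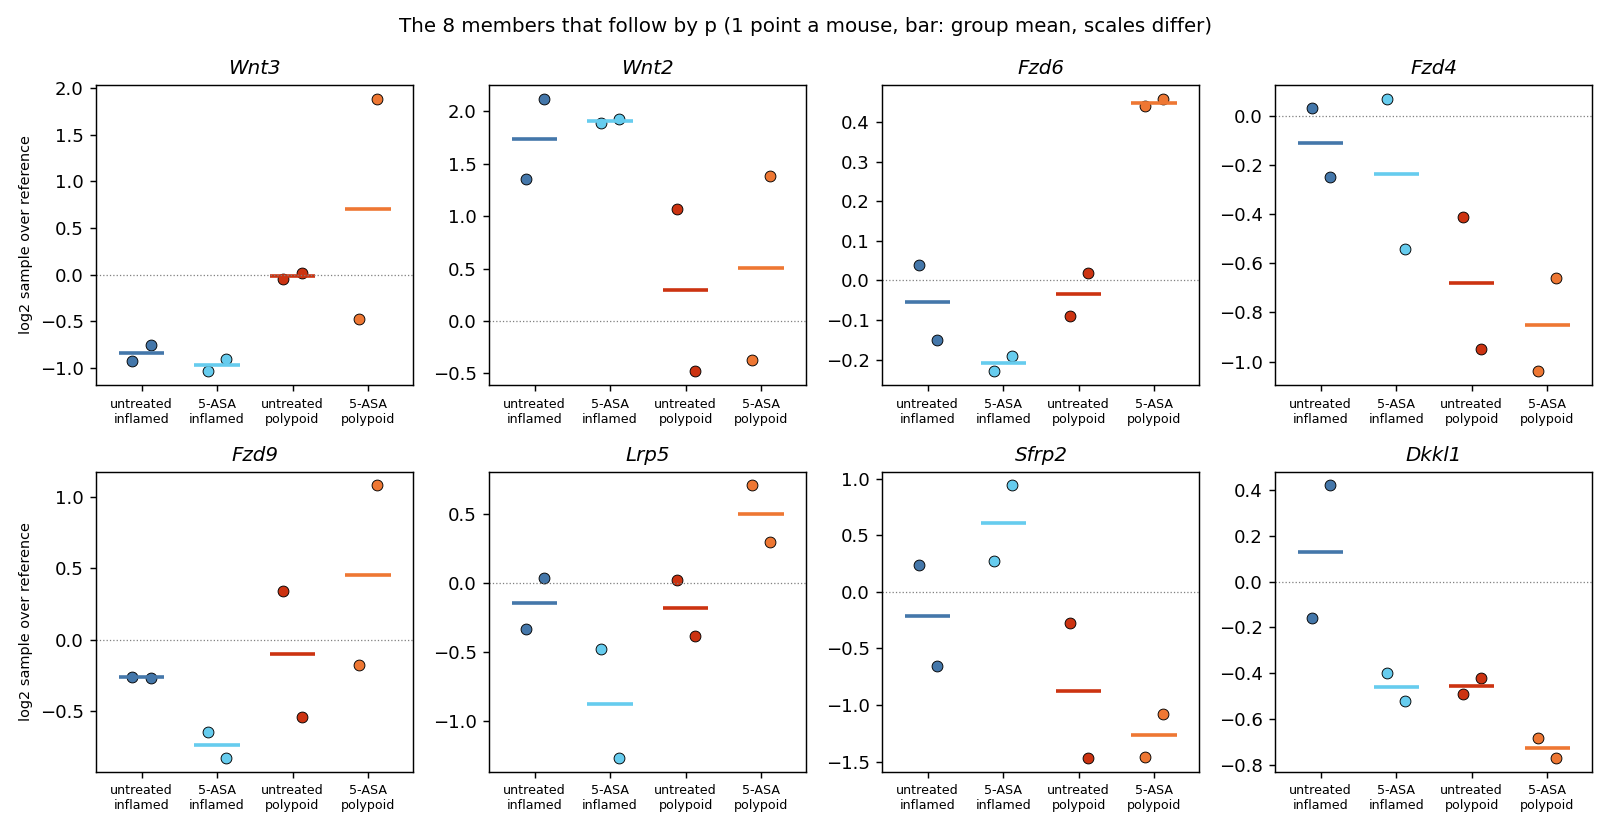
Log2 sample over reference in each mouse (points) with the group mean (bars) for the 8 members that follow the called ones by p, none of which passed; the vertical scales differ between panels. Fzd6 and Lrp5 are high in the 5-ASA polyps, and Wnt3 has 1 high 5-ASA polyp (1.89).

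By separation of the mice, 5 members (Wnt3, Wnt6, Wnt10a, Fzd10 and Dkk3) had all 4 polypoid above all 4 inflamed values, where 8.35% of all genes did, and 3 (Ror2, Fzd3 and Fzd8) had all below, where 7.91% did. Wnt3 was kept through the polypoid groups alone, so its place in the count is partly fixed by the filter. Both counts hold small differences as well as large ones.

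Within the 5-ASA mice, the same 5 members passed as over both arms, 4 higher (2.04% of all genes) and Sfrp1 lower (1.03%). Wnt10a differed by 4.62 ± 0.57 SE (limma adjusted p = 0.022), Fzd10 by 4.59 ± 0.63 SE (0.027), Wnt6 by 1.47 ± 0.13 SE (0.015), Dkk3 by 1.99 ± 0.36 SE (0.047) and Sfrp1 by -2.57 ± 0.40 SE (0.034). In the untreated mice 0 members passed, where 0.16% of all genes were higher and 0.00469% lower, and the differences were 2.53 ± 0.57 SE, 2.30 ± 0.63 SE, 0.81 ± 0.13 SE, 1.46 ± 0.36 SE and -0.64 ± 0.40 SE in the same order. By unadjusted p under 0.05, 5 members differed in the untreated mice (12.6% of all genes) and 10 in the 5-ASA mice (19.2%). With each probe tested on its own, a gene counted if any of its probes passed, and Wnt6 did so in the untreated mice (limma adjusted p = 0.048). The Wnt6 difference of 0.81 above is that of its brightest probe, which did not pass in the main fit (limma adjusted p = 0.097). The second Wnt6 probe was 0.03 and -0.21 in untreated inflamed and 3.37 and 2.71 in untreated polypoid mice. Its inflamed signal was 1.96 times the negative controls. The 5-ASA result rested on few mice: without either 5-ASA inflamed mouse, or without 5-ASA polypoid replicate 2, 0 members passed, and without 5-ASA polypoid replicate 1 only Wnt3 did; without either untreated inflamed mouse Wnt6, Wnt10a and Fzd10 passed.

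The effect of 5-ASA was compared next, 4 treated against 4 untreated mice over both tissues and 2 against 2 within each. In limma 0 members and 0% of all genes passed in any of these comparisons. By unadjusted p under 0.05, 5 members differed over both tissues (6.35% of all genes), 1 in inflamed tissue (4.34%) and 6 in polyps (7.74%). The member with the smallest p in polyps was Wnt6, and the members with the largest differences there were Wnt10a and Fzd10, which belong to those that also differed between the tissues.

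In the polyps, Wnt10a was 2.49 ± 0.57 SE higher with 5-ASA (limma adjusted p = 0.53), by 1.62 in scan session 2 and 3.36 in session 3. Fzd10 was 2.45 ± 0.63 SE higher (adjusted p = 0.56), by 1.08 and 3.82 in these sessions. In both genes the 2 treated polyps exceeded the 2 untreated polyps. The share of all genes separated in this way was not counted, so the separation carries no weight of its own. Wnt6 was 0.61 ± 0.13 SE higher (adjusted p = 0.48), Dkk3 1.18 ± 0.36 SE higher (0.59) and Fzd6 0.49 ± 0.13 SE higher (0.56), each in both sessions. Sfrp1 was -1.24 ± 0.40 SE (adjusted p = 0.61), by -2.06 in session 2 and -0.42 in session 3. None of these differences passed, and 2 mice a group leave wide errors.

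In inflamed tissue the same genes were close between the arms, at 0.39 ± 0.57 SE for Wnt10a, 0.16 ± 0.63 SE for Fzd10, -0.05 ± 0.13 SE for Wnt6 and -0.15 ± 0.13 SE for Fzd6. Dkk3 was 0.65 ± 0.36 SE and Sfrp1 0.69 ± 0.40 SE. The 1 member with an unadjusted p under 0.05 was Dkkl1, at -0.59 ± 0.20 SE. The difference of the 5-ASA effect between tissues was tested directly, and 0 members passed. By unadjusted p under 0.05 it held 6 members (5.96% of all genes): Wnt10a (2.10 ± 0.80 SE), Fzd10 (2.29 ± 0.89 SE), Wnt6 (0.66 ± 0.18 SE), Fzd6 (0.64 ± 0.18 SE), Lrp5 (1.41 ± 0.45 SE) and Sfrp1 (-1.93 ± 0.56 SE), with limma adjusted p of 0.8 to 0.83. The tissue difference was thus not shown to differ between the untreated and the 5-ASA mice.

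**Figure D5:**
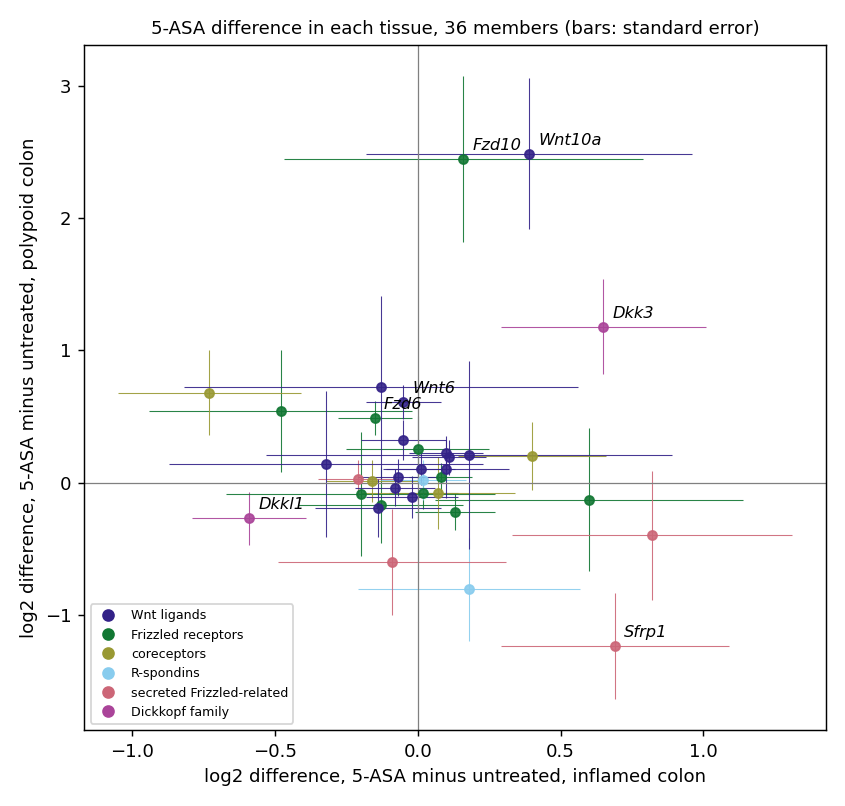
Log2 difference of 5-ASA minus untreated in inflamed (horizontal) and polypoid (vertical) colon for the 36 tested members, 2 mice against 2 in each, with standard errors as bars; members with an unadjusted p under 0.05 in either tissue are named. Wnt10a (0.39 and 2.49) and Fzd10 (0.16 and 2.45) lie high, Sfrp1 (0.69 and -1.24) lies low, and none passed the threshold.

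Over both tissues the 6 members with the smallest p were Wnt10a (1.44 ± 0.40 SE), Dkk3 (0.92 ± 0.25 SE), Wnt6 (0.28 ± 0.09 SE), Dkkl1 (-0.43 ± 0.14 SE), Fzd10 (1.31 ± 0.44 SE) and Fzd6 (0.17 ± 0.09 SE), with limma adjusted p of 0.77 to 0.82. Wnt5b was the 1 member with all 4 5-ASA mice above all 4 untreated mice (1.01% of all genes), at 0.22 and 0.19 in inflamed and 0.19 and 0.35 in polypoid tissue against 0.07, 0.11, 0.15 and 0.01. That difference was 0.15 ± 0.09 SE. No member had all 5-ASA mice below (0.723%). Beside the polyp differences, the mean of the mature colonocyte markers was 2.81 and 1.56 in untreated and 0.79 and 0.90 in 5-ASA polyps, and that of the B and plasma cell markers 2.15 and 2.04 against 0.55 and 0.47. The part of these shifts in the member differences was not tested.

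The rest of the pathway was read from 6 lists of 84 genes, of which 77 were tested. In polypoid against inflamed tissue 14 of 77 rose and 0 fell (background 3.98% and 1.99%), and for 5-ASA 0 passed. Among receptor turnover genes, 3 of 4 tested rose: the R-spondin receptor Lgr5 and the ubiquitin ligases Rnf43 (2.21 ± 0.25 SE) and Znrf3 (1.58 ± 0.14 SE), which remove Frizzled receptors from the surface. Of the 3 secretion genes Notum, which removes the lipid from Wnts, rose, and Porcn and Wls did not pass. Notum was above background on 3 of 7 inflamed and 8 of 8 polypoid arrays, so the size of its rise is uncertain.

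Of 15 other modulators 4 rose, the Wnt-binding Wif1, the membrane inhibitor Apcdd1 (3.80 ± 0.34 SE), the Frizzled partner Tspan12 (1.68 ± 0.20 SE) and Tpbg (0.78 ± 0.13 SE). Of 22 cytoplasmic genes 2 rose, the feedback inhibitors Nkd1 and Axin2. Of 15 nuclear factors 3 rose: Lef1 (2.31 ± 0.19 SE), Tcf7 (2.04 ± 0.29 SE) and the corepressor Tle1 (1.15 ± 0.22 SE). Of 18 planar polarity and calcium genes Vangl2 rose (1.99 ± 0.21 SE). The limma adjusted p of these 14 genes was 0.0039 to 0.04. All 5 named without a value rose by 3.48 (Axin2) to 5.34 (Wif1). Several of the genes that rose are inhibitors of the pathway that it is known to induce, and the lists were written with earlier results of these data known, so their direction is no independent evidence.

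Between 5-ASA and untreated polyps, 0 of these 14 genes passed. Their differences ran from -0.27 ± 0.67 SE for Lgr5 to 2.63 ± 0.48 SE for Apcdd1 (limma adjusted p = 0.44 to 1). Apcdd1 was 2.11 and 1.47 in untreated and 4.15 and 4.69 in 5-ASA polyps, and Znrf3 was -0.03 and -0.33 against 0.87 and 1.22. These values resemble the step in Wnt10a and Fzd10, but both genes were chosen after their values were seen. Most of the others were closer between the arms, at 0.04 for Tle1, 0.10 for Nkd1, 0.11 for Tpbg, 0.25 for Tcf7, 0.30 for Notum, 0.37 for Rnf43, 0.44 for Tspan12 and 0.47 for Wif1, while Vangl2, Axin2 and Lef1 differed by 0.83, 0.99 and 1.09.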

How the data were processed

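The scanner files hold intensity values per spot and channel, read by Agilent Feature Extraction 9.1.1.1 per the file headers. A table of processed values, deposited by the authors as log2 ratios, has its swapped arrays already turned to sample over reference (r with the values used here 0.9959 to 0.9995 per array); its normalization is not given in the sources used here, and it served as an alternative. In R 4.3.3 with limma 3.58.1, background was corrected by normexp (offset 50), arrays were normalised by loess, and ratios were turned to sample over reference. The log10 ratio in the scanner files, red over green per the file headers, was not used. Outlier spots were dropped, and the arrays of a mouse were joined into 1 value with a dye term. A probe was kept if some group had it above background on all its arrays, and each gene took its brightest probe. Probes named otherwise on the array stayed outside the members even where their accession led to one. Group means were compared in limma over 7 comparisons (4 residual degrees of freedom) with Benjamini-Hochberg adjustment over 21304 genes; 2 genes lacked a value in a mouse. The fit was tested on simulated data with a dye effect and independent genes but no session effect, so that test does not cover the scan sessions. P-values measure the spread between 2 mice a group, scanned in different sessions, and the number of arrays limits the precision. Values per mouse are given for members with adjusted p under 0.05, for others up to 24 by tissue p, and for the 6 with the smallest 5-ASA p; of the pathway lists the called genes are named. Members, lists and the rule were chosen with earlier results of these data known. Alternatives covered background, normalization, filters, probes, dyes, replicate and session blocks and each mouse left out.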

Additional observations from a re-analysis of the deposited data

How the results depend on the processing

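No member's difference turned its sign while called, under any alternative run. The count of members called between tissues over both arms was 5, and between 5 and 6 under other background correction, normalization, filters, probes and dye handling. With scan session as a block it was 0, and leaving out 1 mouse at a time it was 2 to 5 (2 without 5-ASA inflamed replicate 1 or 5-ASA polypoid replicate 2). Within the 5-ASA mice the count of 5 became 4 to 5 under the same settings, 0 with session as a block and 0 to 5 with 1 mouse left out. In the untreated mice it was 0, and 1 with all probes tested one by one. The 5-ASA counts were 0 in every setting. Over all genes the count between tissues was 1270, and 133 to 1333 with 1 mouse left out. Aquantile leaves the ratios as they are. Whether the replicate numbers pair the mice is unsettled: deviations of same-numbered mice correlated at 0.20 to 0.36 in 4 pairs of groups and at 0.08 and 0.03 in the other 2, so not every pair was over 0.1, and replicate 1 was scanned in sessions 1 and 2 and replicate 2 in sessions 3 and 4. With the replicate block 5 members passed in the tissue comparison over both arms, and 1764 genes in all. Where a fit leaves 1 mouse in a group, that mouse is assumed to vary like the others. The cause of the lost calls was not tested, and the fits that lost calls also had fewer samples or degrees of freedom. Signals near the negative controls limit the dim members.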
